A study of Mus musculus with 6 samples.

Results

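Transcripts of 9 genes that define mammary epithelial lineages or receive the hormones of the mammary gland were followed in a mouse breast cancer line and in an axitinib-resistant line derived from it. The rule that picks them lists them by name and uses no measured value, although it was written with earlier results of these data known, and they comprise the transcription factors Gata3, Elf5, Foxa1, Trp63, Sox9 and Sox10 and the hormone receptors Esr1, Pgr and Prlr. They are 9 of the 53465 genes in the count table.

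The mammary gland holds luminal cells, which line the ducts and make milk, and basal cells, which surround them and contract. In luminal cells, GATA3 maintains luminal fate and FOXA1 opens chromatin for the oestrogen receptor, which is encoded by Esr1 and induces the progesterone receptor gene Pgr. ELF5 is induced by prolactin signalling through its receptor PRLR and drives the alveolar, milk-producing programme, in which STAT5 is the main signal transducer. The p63 protein, encoded by Trp63, maintains basal cells, and SOX9 and SOX10 are linked to mammary stem and progenitor cells.

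4T1 cells, a mammary carcinoma line of Balb/c mice, spread to distant organs in immunocompetent hosts. RNA was sequenced from 3 libraries of parental cells (P) and 3 libraries of resistant cells (AxR). AxR cells were grown out of metastatic lesions that arose after tumour surgery in mice given 100 mg/kg/day of the VEGF receptor inhibitor axitinib, and were then held in culture with 0.5 μM axitinib for over 2 months. The study's text calls P cells vehicle-treated, whereas the growth label names 0.5 μM axitinib for all 6 samples. The labels name a single P line and a single AxR line, so a difference between P and AxR describes this pair of lines, and selection in the animal, culture and drug cannot be told apart. The labels do not say whether the 3 libraries of a line came from separate cultures, so p-values measure only the spread between these libraries, which may be technical.

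The libraries held 15495260 to 17294525 estimated counts, and 13550 genes passed the filter on low counts and were tested. The first principal component carried 84.3% of the variance. Counts of replicate libraries differed by 5.03 to 19.4 times the variance expected from sampling, so no library was a copy of another. By the quasi-likelihood test of edgeR, with a threshold of 0.05 on the Benjamini-Hochberg adjusted p, 63.5% of the genes tested were called, 32.8% as higher and 30.8% as lower in AxR. The libraries of the lines did not overlap in 68.3%. The median log2 fold change of AxR against P over all genes tested was 0.0058, and the middle 50% of genes lay between -0.33 and 0.38.

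Of the 9 genes, 5 passed the filter and were tested. Of these, Trp63 rose in AxR, Gata3 and Sox9 fell, and Foxa1 and Esr1 did not pass the threshold. Trp63 passed the filter only through AxR, so it had to differ and adds no support to the count of 3 called genes. The libraries of the lines did not overlap for the 3 called genes. Of all genes tested, 7.99% were called higher and 4.72% lower with an absolute log2 fold change of 1 or more, which Trp63 alone of the 9 genes reached. The remaining 4 genes, Elf5, Pgr, Sox10 and Prlr, had at most 2 counts in any library and were not tested. In bulk RNA, fewer cells expressing a gene and less RNA per cell cannot be told apart.

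**Figure D1:**
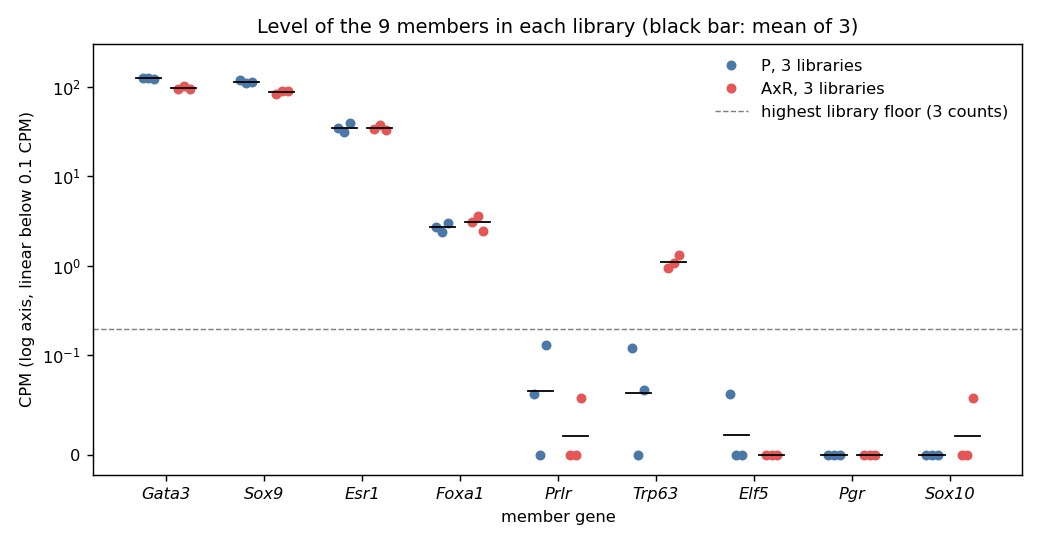
Level of each of the 9 genes in CPM (counts scaled to a library of 1000000, on an axis that is logarithmic above 0.1 and linear below) in the 3 P libraries (blue) and 3 AxR libraries (red), with the mean of each line as a black bar and the level of 3 counts in the shallowest library, 0.196 CPM, as a dashed line. Gata3 and Sox9 lie highest and the red points lie below the blue, Esr1 and Foxa1 overlap between the lines, and Trp63 crosses the dashed line in AxR only.

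Levels of different genes were compared as CPM per kilobase of merged exons. In P, Gata3 was highest at 31.1 ± 0.381 CPM per kb (SD, n = 3), at percentile 88.1 of the genes tested. Sox9 followed at 27.5 ± 1.02 CPM per kb, at percentile 86.1. Gata3 exceeded Sox9 in every library of each line, so these neighbours in the order did not overlap. Esr1 stood far below them at 2.56 ± 0.271 CPM per kb in P, at percentile 30.0, and Foxa1 at 0.812 ± 0.0954 CPM per kb, at percentile 15.2. In AxR the order of these 4 genes was the same, with 24.3 ± 1.10, 21.1 ± 1.00, 2.56 ± 0.164 and 0.921 ± 0.179 CPM per kb for Gata3, Sox9, Esr1 and Foxa1. In AxR, Trp63 ranked below these 4 at 0.133 ± 0.0215 CPM per kb, at percentile 2.03. With the length of the longest transcript in place of merged exons, Esr1 reached 5.51 CPM per kb in both lines, and the order was unchanged.

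The promoter windows of a well expressed, a weakly expressed and an undetected member are printed as examples. Which starts the cells used was not measured. RefSeq promoter windows, the 250 bases before an annotated start on GRCm38.p6, were available for 6 of the 9 genes. The windows of Gata3 (chr2:9878601-9878850, minus strand), Foxa1 (chr12:57546112-57546361, minus strand) and Pgr (chr9:8899583-8899832, plus strand) are printed 5′ to 3′ in the direction of the gene. Capitals mark the ETS motif CCGGAA, on its reverse strand, in Gata3, and the forkhead motif TGTTTAC, also on its reverse strand, in Foxa1.
Gata3: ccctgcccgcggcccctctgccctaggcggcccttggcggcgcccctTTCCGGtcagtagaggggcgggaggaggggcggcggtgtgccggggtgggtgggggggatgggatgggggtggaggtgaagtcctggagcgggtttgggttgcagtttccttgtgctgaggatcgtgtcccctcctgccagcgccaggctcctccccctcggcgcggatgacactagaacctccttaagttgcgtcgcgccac
Foxa1: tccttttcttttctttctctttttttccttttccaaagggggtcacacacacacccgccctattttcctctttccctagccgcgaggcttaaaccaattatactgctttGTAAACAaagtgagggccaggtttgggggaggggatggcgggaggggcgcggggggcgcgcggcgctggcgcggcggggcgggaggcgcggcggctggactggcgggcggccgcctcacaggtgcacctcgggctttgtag
Pgr: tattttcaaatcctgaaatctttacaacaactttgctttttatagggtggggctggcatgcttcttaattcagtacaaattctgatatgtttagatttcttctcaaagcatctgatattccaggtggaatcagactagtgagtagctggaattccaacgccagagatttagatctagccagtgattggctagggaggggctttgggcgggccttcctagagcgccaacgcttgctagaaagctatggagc
These windows differed in base composition, with a GC content of 70% for Gata3, 62% for Foxa1 and 43.6% for Pgr. Over the windows of the other members, GC content did not follow level throughout. It was 62.8% and 56.8% for Elf5, which was barely detected, and 47.6% and 59.6% for Esr1. For Prlr it was 48%, 44.8% and 32.8%. The ratio of observed to expected CpG was 0.633 for Gata3, 0.887 for Foxa1 and 0.342 for Pgr. The whole Gata3 window also lies in an exon of the noncoding gene Gm13256 on the opposite strand, and 10 bases of the Foxa1 window lie in a Foxa1 exon.

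Both strands were searched for the motifs of the families to which the members or their partners belong. CCGGAA was in 12% of all 32851 windows of this length, and TGTTTAC, also in 1 of the 3 Prlr windows, in 3.17%. The SOX motif ACAAAG, in 16.5% of all windows, matched at 3 places in the Foxa1 window, and 2 of these overlap the forkhead match. The STAT5 motif TTCNNNGAA, in 7.02% of all windows, was in 1 of the 2 Esr1 windows and 1 of the 3 Prlr windows. The GATA motif GATAA, in 22.6% of all windows, was in 1 of the 2 Elf5 windows and 1 of the 2 Esr1 windows. No member window held the palindromic oestrogen response element, which was in 0.0639% of all windows, and the Pgr window held none of the 6 motifs. A match describes letters in the window only.

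Among the luminal factors, Gata3 was abundant in both lines and lower in AxR. Gata3 (ENSMUSG00000015619) lies on the minus strand at chr2:9857078-9890034 of GRCm38. It measured 125, 124 and 122 CPM in P replicates 1 to 3 and 94.2, 102 and 94.0 CPM in AxR replicates 1 to 3. All P libraries were above all AxR libraries. The mean fell from 124 ± 1.52 to 96.6 ± 4.39 CPM (SD, n = 3 per line), which is 21.9% lower. The log2 fold change was -0.36 ± 0.052 (SE; 95% confidence interval -0.47 to -0.25; adjusted p = 2.48e-05, edgeR). The exact two-sided permutation p was 0.1, the smallest that 3 against 3 libraries allow. The change was of ordinary size for this pair of lines, as 49.5% of the genes tested had a larger absolute log2 fold change. In 232 bases, Gata3 exons overlap those of 9230102O04Rik, on the same strand with 3 to 13 counts, and Gm13256, with at most 1 count.

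Foxa1, the pioneer factor of the oestrogen receptor, was low in both lines. Foxa1 (ENSMUSG00000035451) lies on the minus strand at chr12:57540628-57546916. Its counts were 45, 41 and 46 in P and 49, 57 and 43 in AxR, which gave 2.74, 2.37 and 3.00 CPM in P and 3.11, 3.64 and 2.45 CPM in AxR. The libraries of the lines overlapped, with AxR replicate 3 below 2 of the P libraries. The log2 fold change was 0.18 ± 0.20 (SE; 95% confidence interval -0.25 to 0.61; adjusted p = 0.457, edgeR; exact permutation p = 0.4). Folds of AxR over P between 0.840 and 1.53 lay within the interval, and the smallest detectable difference was not determined.

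Elf5, the alveolar factor, was barely detected. Elf5 (ENSMUSG00000027186, plus strand, chr2:103411688-103450989) had 1 count in P replicate 1 and 0 in the other libraries. At the depth of the shallowest library, 3 counts correspond to 0.196 CPM, or 0.0333 CPM per kb of Elf5 exon, so levels up to about that size cannot be told from 0.

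The hormone receptors split into Esr1, which was measured at the same level in both lines, and Pgr and Prlr, which were at or under the floor of 3 counts. Esr1 (ENSMUSG00000019768) encodes oestrogen receptor alpha and spans chr10:4611593-5005614 on the plus strand. It measured 34.4, 31.5 and 38.9 CPM in P and 34.1, 37.4 and 33.2 CPM in AxR. The AxR values all lay within the range of the P values. The means were 34.9 ± 3.70 CPM in P and 34.9 ± 2.24 CPM in AxR (SD, n = 3). The fitted fold was 1.00 with a 95% confidence interval of 0.885 to 1.13, and edgeR's adjusted p was 1.00 (exact permutation p = 1). A change of more than those bounds in either direction lay outside the interval.

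Pgr (ENSMUSG00000031870, plus strand, chr9:8899833-8968611) had 0 counts in all 6 libraries, so that its level was at most 0.196 CPM by the floor of the shallowest library, or 0.0229 CPM per kb. Prlr (ENSMUSG00000005268, plus strand, chr15:10177238-10349180) had 1, 0 and 2 counts in P and 0, 0 and 1 in AxR, and its floor was 0.0128 CPM per kb. Of the 3 receptors, Esr1 alone was measured above the floor, and whether the receptor proteins were present was not measured.

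Among the basal and progenitor factors, Trp63 appeared in AxR at a low level. Trp63 (ENSMUSG00000022510) spans chr16:25683763-25892102 on the plus strand, and its 8 annotated transcripts, with full-length and truncated N termini, are summed in the gene count. It had 2, 0 and 1 counts in P and 15, 17 and 23 counts in AxR. Every P library was at or under the floor of 3 counts, and every AxR library was above it. The lines held 3 and 55 counts in total, and the depth-corrected ratio of AxR to P was 18.4 (95% counting interval 5.97 to 91.8). Its level in AxR, 1.11 ± 0.180 CPM (SD, n = 3), was nonetheless under that of Foxa1 per kilobase. The fitted log2 fold change was 4.04 ± 0.57 (SE; adjusted p = 1.80e-05, edgeR; exact permutation p = 0.1), and this value depends on the prior count because P was at the floor. It was 3.47 without P replicate 2 and 4.88 without P replicate 1. With a filter of 10 counts in every library, Trp63 was not tested.

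Sox9, a factor of progenitor cells, was the second most abundant of the 9 genes and was lower in AxR. Sox9 (ENSMUSG00000000567) lies on the plus strand at chr11:112782224-112787760. It measured 118, 109 and 114 CPM in P and 82.5, 89.3 and 89.9 CPM in AxR, with no overlap between the lines. The mean was 23.2% lower, at 87.3 ± 4.14 against 114 ± 4.22 CPM (SD, n = 3). The log2 fold change was -0.38 ± 0.055 (SE; 95% confidence interval -0.50 to -0.26; adjusted p = 2.29e-05, edgeR; exact permutation p = 0.1). As for Gata3, the size was ordinary, since 46.8% of the genes tested changed more in absolute value. Sox10 (ENSMUSG00000033006, minus strand, chr15:79154908-79165240), the related factor of neural crest and mammary progenitor cells, had 1 count in AxR replicate 3 and 0 elsewhere, with a floor of 0.0641 CPM per kb.

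**Figure D2:**
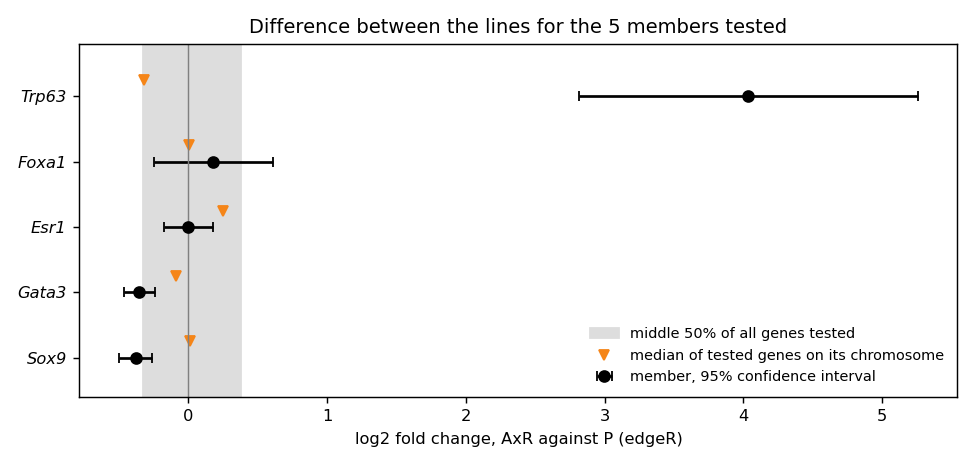
Log2 fold change of AxR against P with its 95% confidence interval for the 5 genes tested, beside the median log2 fold change of the tested genes on the chromosome of each (orange triangles) and the middle 50% of all genes tested (grey band, -0.33 to 0.38). Trp63 lies far to the right of the band at 4.04, the intervals of Foxa1 and Esr1 span 0, and Gata3 and Sox9 lie at the lower edge of the band.

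The chromosomes of the members differed in their median log2 fold change, so each member was set beside its chromosome and neighbours. The median was -0.093 on chromosome 2, 0.0077 on chromosome 11 and 0.0014 on chromosome 12, close to that of all genes. On chromosome 10, which carries Esr1, the median of 670 tested genes was 0.25, and Esr1 relative to it was at -0.25 on the log2 scale. Its tested neighbours differed in sign, with log2 fold changes of 0.27 for Armt1 and -0.18 for Syne1. On chromosome 16, which carries Trp63, the median of 397 tested genes was -0.32. The part of these chromosome-wide shifts in the members' values was not tested.

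The nearest tested neighbours of Trp63 and Sox9 included a transcript that fell strongly. Gm4524, 64 kb from Trp63, fell from 2.74 ± 0.462 to 0.186 ± 0.114 CPM (log2 fold change -3.84, adjusted p = 3.90e-07, edgeR), opposite to Trp63. Lpp, on the other side of Trp63, had a log2 fold change of -0.18. 2610035D17Rik, 256 kb from Sox9, fell from 1.62 ± 0.331 to 0.182 ± 0.0506 CPM (log2 fold change -3.09, adjusted p = 6.48e-06, edgeR). Prkar1a, 3113 kb away on the other side of Sox9, had a log2 fold change of -0.17. Beside Foxa1, the values were -0.23 for Mipol1 and 0.21 for Sec23a, and beside Gata3 they were -0.56 for Gm13217 and 0.44 for 9230102O04Rik, neither past the threshold (adjusted p = 0.0841 and 0.454, edgeR).

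The genes of the lineages to which the members belong moved in both directions. In the 10 lists, 77.8% to 100% of the tested genes were called, against 63.5% of all genes tested. The lists held 1 to 19 tested genes each and were chosen with earlier results known. Some called genes, such as Zeb1, Gata2 and Cyp24a1, passed the filter only through the line in which they are high, so they had to differ. Col17a1, Id4 and Tbx2 likewise passed it only through P, where they are higher. These shares are therefore no support for a difference from all genes. Among 10 luminal keratin and epithelial genes, 9 were tested, of which 4 rose and 5 fell, with a median log2 fold change of -0.17 (0.089 without the filter on low counts). The simple-epithelial keratins led, with Krt18 at 676 ± 49.6 CPM in P and 867 ± 22.2 CPM in AxR (log2 fold change 0.36) and Krt7 rising from 370 ± 29.5 to 720 ± 46.8 CPM (0.96). Krt19 fell from 8.88 ± 0.798 to 3.56 ± 0.170 CPM (-1.31). The tight-junction genes also fell, Cldn7 from 8.22 ± 1.18 to 0.751 ± 0.108 CPM (-3.43) and Cldn3 from 61.2 ± 3.71 to 31.8 ± 3.40 CPM (-0.94). The summed level of the list was 1820 to 2030 CPM in P and 2490 to 2690 CPM in AxR.

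Of 8 luminal progenitor genes, 4 were tested, 2 rose and 2 fell (median log2 fold change -0.40, which turned to 1.26 with at least 10 counts in every library and was -1.67 without a filter). Itga2, a chain of a collagen-binding integrin, fell from 525 ± 10.4 to 127 ± 2.91 CPM (-2.05). Cyp24a1, which inactivates vitamin D, fell from 1.13 ± 0.347 to 0.206 ± 0.101 CPM (-2.42). Lcn2, an iron-siderophore carrier, rose from 4.96 ± 1.25 to 12.7 ± 3.68 CPM (1.37), and Cd14, a coreceptor for bacterial lipopolysaccharide, from 3.52 ± 0.851 to 8.39 ± 0.325 CPM (1.26). Kit, a receptor of luminal progenitors, had no count.

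**Figure D3:**
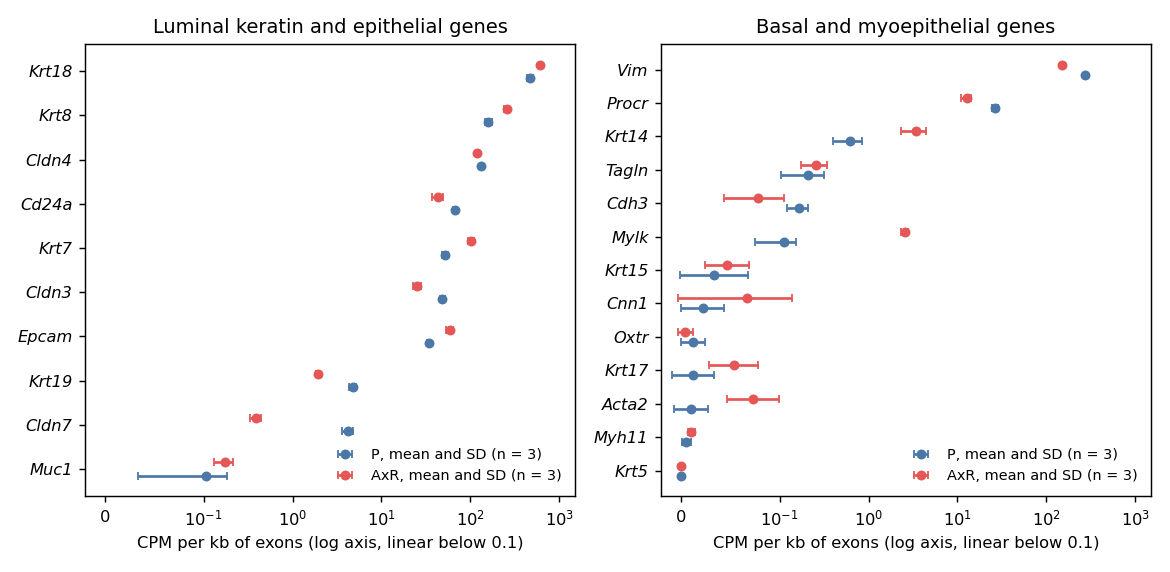
Level in CPM per kb of merged exons (log axis, linear below 0.1) of 10 luminal keratin and epithelial genes (left) and 13 basal and myoepithelial genes (right) in P (blue) and AxR (red), as mean and SD of 3 libraries. Krt18 and Krt8 are the highest luminal genes in both lines, Krt5 lies at 0, and among basal genes Mylk and Krt14 are higher and Vim and Procr lower in AxR.

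Basal and myoepithelial genes, which mark the cells that p63 maintains, included few that passed the filter. Of 13 genes, 4 were tested, of which 2 rose and 2 fell, and 5 were at or under the floor in all 6 libraries. Mylk, myosin light-chain kinase, rose from 1.27 ± 0.425 to 28.7 ± 2.31 CPM (log2 fold change 4.5), and Krt14, a basal keratin, from 1.09 ± 0.388 to 5.95 ± 1.84 CPM (2.45). Vim, a mesenchymal and basal intermediate filament, fell from 1304 ± 25.2 to 718 ± 20.0 CPM (-0.86), and Procr, the protein C receptor, from 53.7 ± 3.98 to 25.7 ± 3.17 CPM (-1.07). The median of the 4, 0.79, lay between the pairs. Without P replicate 3, AxR replicate 1, AxR replicate 2 or AxR replicate 3, the list median was -0.84, -0.87, -0.83 or -0.87. These were the values of Vim in those fits. In all 14 alternatives Mylk and Krt14 stayed higher and Vim and Procr lower, so the tested set no longer held these 4 alone. Krt5, the keratin that pairs with Krt14 in basal cells, had no count in any library, and Acta2 had at most 4 counts.

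Genes known as direct targets of p63 included both rising and falling members. Of 12, 11 were tested, with 4 higher, 5 lower and 2 not past the threshold (median log2 fold change -0.062). Fgfr2, a receptor for fibroblast growth factors, rose from 85.5 ± 1.70 to 425 ± 24.2 CPM (2.31). Pkp1, a desmosomal plaque protein, rose from 3.02 ± 0.427 to 12.5 ± 0.559 CPM (2.05), and Perp, a desmosome-associated membrane protein, from 125 ± 9.91 to 383 ± 10.2 CPM (1.62). Col17a1, a hemidesmosome collagen, fell from 1.17 ± 0.178 to 0.489 ± 0.225 CPM (-1.24). Itga3, the most abundant per kilobase, was 1492 ± 86.3 CPM in P and 1500 ± 13.7 CPM in AxR (0.0077, adjusted p = 0.90, edgeR).

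Around the oestrogen and progesterone receptors, no tested gene of the hormone-sensing list rose. Of 17 genes, 6 were tested, 5 fell and 1 did not pass the threshold (median log2 fold change -0.45), while 8 were at or under the floor, among them Pdzk1, Tff1, Tff3 and Spdef with no count. Areg, an EGF receptor ligand that oestrogen induces in the gland, fell from 46.8 ± 8.55 to 14.5 ± 1.85 CPM (-1.69). Ccnd1, the cell-cycle regulator cyclin D1, fell from 1168 ± 11.5 to 809 ± 66.1 CPM (-0.53), and Igfbp4, which binds insulin-like growth factors, from 484 ± 12.0 to 373 ± 21.4 CPM (-0.38). Myb, a transcription factor linked to oestrogen receptor-positive tumours, was 1.88 ± 0.291 CPM in P and 1.08 ± 0.404 CPM in AxR (-0.82, adjusted p = 0.0274, edgeR). Its adjusted p was 0.0663 with DESeq2, and in edgeR 0.0733, 0.0964 and 0.125 when P replicate 1, P replicate 2 and AxR replicate 3 were left out, so the call was lost in each. The summed level of the list was 1780 to 1820 CPM in P and 1230 to 1330 CPM in AxR, and most of it came from Ccnd1 and Igfbp4. Among genes too low to test, Greb1 and Ly6a had all AxR libraries above all P libraries, with at most 8 and 10 counts. Cited1 had all AxR libraries below all P libraries, with at most 14 counts. These genes are known to respond to other signals as well, and receptor activity was not measured.

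**Figure D4:**
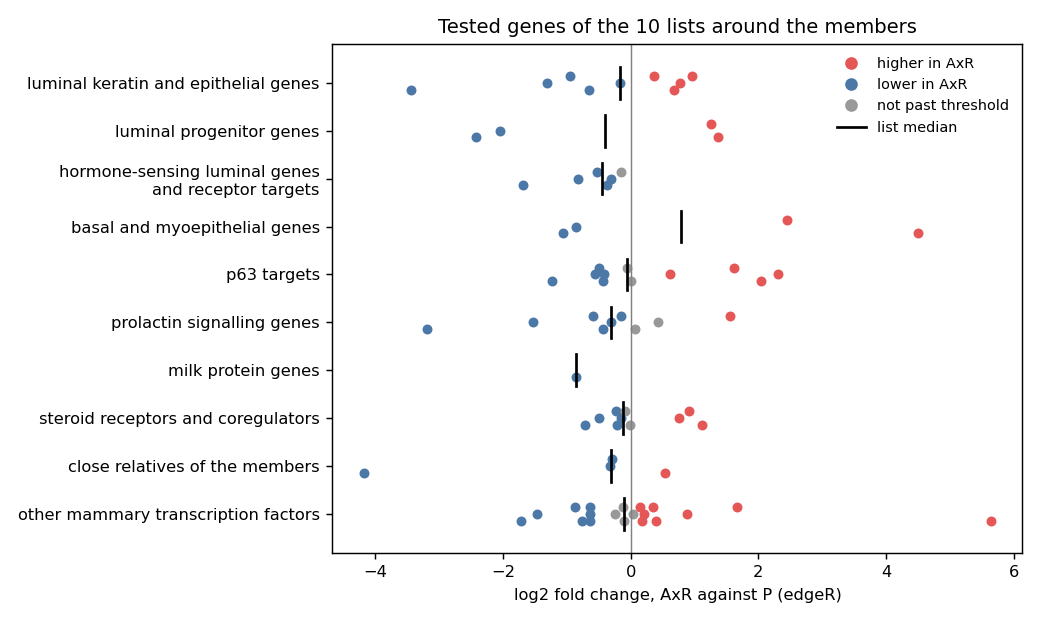
Log2 fold change of AxR against P for every tested gene of the 10 lists, coloured by edgeR's call at an adjusted p under 0.05 (red higher, blue lower, grey not past), with the median of each list as a black bar. Most lists hold genes on both sides of 0, whereas in the hormone-sensing list the 5 called genes are blue, and Zeb1 lies farthest right at 5.64.

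Other steroid receptors and their coregulators were expressed in both lines. Of 15 genes, 10 were tested, 3 rose, 5 fell and 2 did not pass the threshold (median log2 fold change -0.12). Nr3c1, the glucocorticoid receptor, rose from 150 ± 10.8 to 283 ± 7.66 CPM (0.92). Pgrmc1 and Pgrmc2, membrane-associated haem-binding proteins unrelated in sequence to Pgr, rose from 64.9 ± 5.47 to 140 ± 6.53 CPM (1.11) and from 79.6 ± 2.24 to 135 ± 1.68 CPM (0.76). Nrip1, a corepressor of nuclear receptors, fell from 139 ± 5.55 to 84.4 ± 1.70 CPM (-0.72).

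In the prolactin pathway, the receptor was near 0 while most of its signalling genes were measured. Of 10 genes, 9 were tested, 1 rose, 6 fell and 2 did not pass the threshold (median log2 fold change -0.31). Of the 6 falls, that of Stat5b (-0.15, adjusted p = 0.0422, edgeR) was lost in 7 of 14 alternatives, which were DESeq2, no filter and leaving out any library but AxR replicate 3, with adjusted p-values of up to 0.186. Stat5a rose from 7.69 ± 0.678 to 22.6 ± 0.500 CPM (1.55). Ghr, the growth hormone receptor, which is a relative of Prlr and also signals through STAT5, fell from 53.2 ± 5.60 to 5.81 ± 0.846 CPM (-3.20). The feedback inhibitors Socs2 and Socs3 fell from 19.9 ± 1.13 to 6.87 ± 0.659 CPM (-1.53) and from 14.7 ± 0.152 to 9.78 ± 0.607 CPM (-0.58). The feedback inhibitors Socs1 and Cish of the same list did not pass the threshold (0.066 and 0.43, adjusted p = 0.785 and 0.0629, edgeR). For Cish, all AxR libraries were above all P libraries. Ptpn11, the phosphatase SHP2, fell from 389 ± 13.97 to 289 ± 13.1 CPM (-0.43). Prl itself had no count. Of 6 milk protein genes, Csn3, which encodes kappa-casein, was the only one tested and fell from 8.05 ± 0.124 to 4.404 ± 0.815 CPM (-0.86), while the other 5 were at or under the floor.

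Relatives of the members were searched for expression of the same families. Of 11, 4 were tested, with 1 higher, 3 lower and 7 at or under the floor (median log2 fold change -0.31, and -0.0019 without a filter). Gata2 had 27, 27 and 25 counts in P and 1, 2 and 1 in AxR, a ratio of AxR to P of 0.0507 (95% counting interval 0.0135 to 0.135). Gata4 rose from 12.8 ± 1.19 to 18.6 ± 2.47 CPM (0.54). Trp53 fell from 82.3 ± 2.90 to 65.8 ± 8.49 CPM (-0.32), and Elf3, an epithelial relative of Elf5, from 21.1 ± 0.560 to 17.2 ± 1.90 CPM (-0.29). Trp73, the other p63 relative, had no count.

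Among 23 other mammary transcription factors, 19 were tested, with 8 higher, 7 lower and 4 not past the threshold (median log2 fold change -0.11). Of the 8 higher calls, Runx2 was lost in 10 of 14 alternatives, Id1 in 4 and Nfib in 2, with adjusted p-values of up to 0.141, 0.112 and 0.0531. Without P replicate 2 the calls of Runx2 and Nfib were lost, without AxR replicate 2 or AxR replicate 3 those of Runx2 and Id1, without P replicate 1 that of Id1, without P replicate 3 that of Runx2 and without AxR replicate 1 that of Nfib. Zeb1, a repressor of epithelial genes, had 1 count in each P library and 58, 50 and 60 in AxR, a ratio of 56.1 (95% counting interval 18.9 to 275). Id2, an inhibitor of helix-loop-helix factors, rose from 2.70 ± 0.404 to 8.55 ± 1.55 CPM (1.66), whereas its relative Id4 fell from 1.93 ± 0.437 to 0.694 ± 0.190 CPM (-1.46). Tbx2, a T-box factor of the developing gland, fell from 2.02 ± 0.715 to 0.612 ± 0.161 CPM (-1.71). Cebpb, needed for alveolar development, was 98.5 ± 9.34 CPM in P and 91.2 ± 6.98 CPM in AxR (-0.11, adjusted p = 0.197, edgeR), and without AxR replicate 3 its adjusted p was 0.0402.

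The labelled cell type was compared with markers of other cells the lesion could have held. The luminal keratins Krt18 and Krt7 were abundant in both lines, at 867 and 720 CPM in AxR. Of the basal keratins, Krt5 had no count and Krt15 and Krt17 had at most 2 counts in any library. Only Krt14 was tested, and in AxR its 5.95 CPM was above the lowest luminal keratin of the list, Krt19 (3.56 CPM). None of 7 fibroblast, 7 leukocyte and 6 endothelial markers passed the filter, and their summed levels were 0.391 to 0.851 CPM in P against 0.569 to 1.02 CPM in AxR for fibroblasts, 0.0652 to 0.365 against 0.127 to 0.284 CPM for leukocytes, and 0.456 to 0.693 against 0.190 to 0.383 CPM for endothelial cells. Of 6 lung epithelial markers, 5 were at or under the floor, and Foxj1, a regulator of motile cilia, rose from 0.578 ± 0.251 to 3.80 ± 0.0375 CPM (log2 fold change 2.72). With 12, 5 and 11 counts in P, Foxj1 passed the filter only through AxR, so its rise adds no support for a difference. The summed level of the lung list was 0.462 to 0.782 CPM in P and 3.81 to 3.89 CPM in AxR, and its part in the Trp63 result was not tested. Of 6 melanocyte and Schwann cell markers, the cells in which Sox10 is known to be high, 4 were at or under the floor, and Mitf was 13.3 ± 0.901 CPM in P and 13.3 ± 1.13 CPM in AxR (SD, n = 3).

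Genes with the most similar pattern over the 6 libraries were listed as a description. For Gata3, Pearson's r of log2 CPM was 1.00 with Mreg and 0.999 with Elk3, and 1566 tested genes had r above 0.95. For Sox9 it was 0.999 with Dusp6 and 0.998 with 2810002D19Rik, among 1379 genes above 0.95. For Trp63 it was 0.999 with Zxdb and with Cep120, among 1603. The points share 2 lines of 3 libraries, so a gene that differed between the lines scores high.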

How the data were processed

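RNA of 3 P and 3 AxR libraries was extracted with the RNeasy kit, and stranded, poly(A)-selected libraries were sequenced. The authors checked reads with FastQC 0.11.5, aligned them to GRCm38 with STAR 2.6.0a, and deposited estimated counts per gene from RSEM 1.3.1, which divides reads among genes they match. The strand setting of the counting is not given in the sources used here, so overlapping genes may share reads.

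Estimated counts were rounded, filtered with filterByExpr and scaled by upper quartile (factors 0.966 to 1.02). The test was edgeR's quasi-likelihood F test (version 4.0.16, robust, line as the only term, two-sided) with Benjamini-Hochberg adjustment over 13550 genes and a threshold of 0.05. These tested genes held 99.9% of the counts. CPM used the normalized library size. Exon lengths and positions came from GENCODE M21, in which 53274 of 53465 identifiers were found. For a single gene, an exact two-sided permutation test was run on log2(CPM + 0.5). The floor was 3 counts per library (0.171 to 0.196 CPM), and floors and counting intervals cover counting error only.

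The members and lists were chosen with earlier results of these data known. Named genes were the members, the most abundant gene per kilobase of each list, up to 4 called genes of each list with the largest absolute log2 fold change, the 2 genes most like each called member, and neighbours of tested members. Gm13256, Runx2, Id1, Nfib, Stat5b, Kit, Krt5, Acta2, Krt8, Pdzk1, Tff1, Tff3, Spdef, Prl, Trp73, Mitf, Foxj1, Greb1 and Esr2 were named after their values were seen. So were Socs1, Cish, Ly6a, Cited1, Krt15 and Krt17. Some list genes are not reported here. Alternatives were TMM, library size only, DESeq2 1.42.0 and its size factors, limma-voom (limma 3.58.1), other filters, the replicate number as a block, each library left out, a log2 fold change of at least 1, chromosome medians and transcript length. For single list genes they were chosen after seeing the data.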

Additional observations from a re-analysis of the deposited data

How the results depend on the processing

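The calls and directions of Gata3 and Sox9 held under every alternative in which they were tested, except that they fell short of 1 in absolute log2 fold change. Esr1 lay on the other side of 0 with limma-voom (0.0042), with the replicate block (0.0014) and without single libraries (from -0.068 to 0.085), and it passed the threshold in none of them. With at least 10 counts in every library Trp63 was not tested, which left 0 members higher by edgeR. Of the 4 members tested in that fit, 0 were higher and 2 were lower at an unadjusted p under 0.05. Under the usual filter, which keeps Trp63, 1 member was higher at that p with DESeq2 or limma-voom. With calls limited to absolute log2 fold changes of 1 or more, 1083 genes were higher, 640 were lower and 0 members were lower, since Gata3 and Sox9 lie under that fold whatever their p. Without the fold limit, 2 members were lower at an unadjusted p under 0.05 with edgeR, with DESeq2 and with limma-voom. Itga3, not past the threshold, turned to -0.0040 with TMM, -0.014 by library size, -0.0050 with DESeq2 size factors in edgeR and -0.0050 with DESeq2, and ranged from -0.013 to 0.058 without single libraries. The cause was not tested. With the replicate number as a block, 4304 genes were higher and 4023 lower, and 1 member was higher and 2 lower. Deviations of same-numbered samples correlated at -0.0213, -0.0061 and -0.0217, and no sample correlated best with its own number, so the samples share only a number. Depth limits the statements on Elf5, Pgr, Sox10 and Prlr, and on Trp63 in P, to levels above the floor.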

Other observations

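Around Esr1, 2 genes outside the named lists' largest changes were looked at after their values were seen. Greb1, a gene that oestrogen receptor alpha is known to induce, had 0 counts in each P library and 8, 7 and 8 counts in AxR. Esr2, which encodes oestrogen receptor beta, had 9, 6 and 8 counts in P and 2 in each AxR library. All of these lie near the floor of 3 counts, and neither is large enough for more than a description of these libraries.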
